A study of Homo sapiens with 4 samples.

Results

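The genes of nucleolar ribosome biogenesis and RNA polymerase I (Pol I) were examined by RNA sequencing in an imatinib-sensitive and an imatinib-resistant human leukaemia cell line. The list held 51 genes, of 32673 in the expression table, and was drawn up by gene name from known roles in the pathway. All 51 genes were found. TF1 is an erythroleukaemia line that depends on the cytokine GM-CSF. The TF1-BA cells carry the BCR-ABL oncogene from a retrovirus, which made them sensitive to imatinib, an inhibitor of the BCR-ABL kinase. The TF1-BAR cells were derived from the same model through months of continuous imatinib exposure and also carry BCR-ABL. According to the growth protocol in the labels, both lines were grown with 2 ng/mL GM-CSF, and the TF1-BAR culture contained 2 μM imatinib, whereas whether the drug was present at harvest was not stated. The study's methods give a higher GM-CSF concentration than the labels, so the dose is uncertain. Each line gave 2 libraries, each from 10000000 cells. The 2 TF1-BAR libraries bear the word VECTOR in their titles. The study's methods describe vectors for knockdown and overexpression and an empty vector control, and none of them is tied to these libraries. Each line is a single derivation, and the labels do not say whether the 2 libraries of a line came from separate cultures, so the spread between them may be technical.

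Ribosome biogenesis starts in the nucleolus, where Pol I copies the ribosomal DNA into a long precursor RNA. The selectivity factor SL1 and the upstream binding factor UBTF mark the ribosomal promoter, and RRN3 (also called TIF-IA) brings initiation-competent Pol I to it. Small nucleolar ribonucleoproteins (snoRNPs) then modify the precursor, the small-subunit (SSU) processome folds and cleaves it, and further factors mature the small and large subunits before export. The pathway is a classical target of the MYC transcription factor, and its activity follows the growth rate of a cell.

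A sequence feature that the choice of genes had not used was the E-box word CACGTG, the preferred binding word of MYC and related factors, which reads the same on both strands and was the only word searched. The windows ran from 250 bases before to 50 bases after the annotated transcription start (RefSeq, GRCh38.p14), and 44 of the 51 genes had one. The word was found in 19 of these 44 genes (43.2%), compared with 12.6% of the 9191 protein-coding genes tested that had a window and 8.77% of all 27305 genes with a window. These shares count a gene once if any of its windows held the word, and 33 of the 44 genes and 6507 of the 9191 protein-coding genes had 1 window. In the first 50 transcribed bases, 13 of the 44 genes (29.5%) held the word, compared with 1.52% of the protein-coding genes. In the 50 bases before the start, 6 genes (13.6%) held it, compared with 4.08%. A match describes the letters only and is not a measured binding site.

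The stretch of 30 bases around the word is shown for the 7 genes with individual values that had it, since these windows show how close to the start the word lay. Capitals mark the word, each sequence reads 5′ to 3′ on the strand of the gene, and positions count from the first transcribed base.
BYSL: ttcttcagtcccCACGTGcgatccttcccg
DDX21: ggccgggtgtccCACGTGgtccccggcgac
FBL: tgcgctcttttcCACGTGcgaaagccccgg
NOP10: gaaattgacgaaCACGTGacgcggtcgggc
RCL1: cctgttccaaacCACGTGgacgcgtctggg
RRP9: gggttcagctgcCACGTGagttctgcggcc
UTP20: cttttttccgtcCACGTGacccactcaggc

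In GRCh38.p14 these stretches lay at chr6:41921515-41921544 on the plus strand for BYSL, chr10:68956604-68956633 on the plus strand for DDX21 and chr19:39846356-39846385 on the minus strand for FBL. The stretch of NOP10 lay at chr15:34343130-34343159 on the minus strand, that of RCL1 at chr9:4792936-4792965 on the plus strand, that of RRP9 at chr3:51941892-51941921 on the minus strand and that of UTP20 at chr12:101280083-101280112 on the plus strand. The word began at position 29 in BYSL, 7 in FBL and 5 in RCL1, and at position -31 in DDX21, -10 in UTP20 and -5 in RRP9. The position in DDX21 counts from the start of its downstream window, and its window at an upstream start did not hold the word. NOP10 held 2 copies of the word. The copy shown, nearer to the start, began at position -11, and the other began at position -170.

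**Figure D1:**
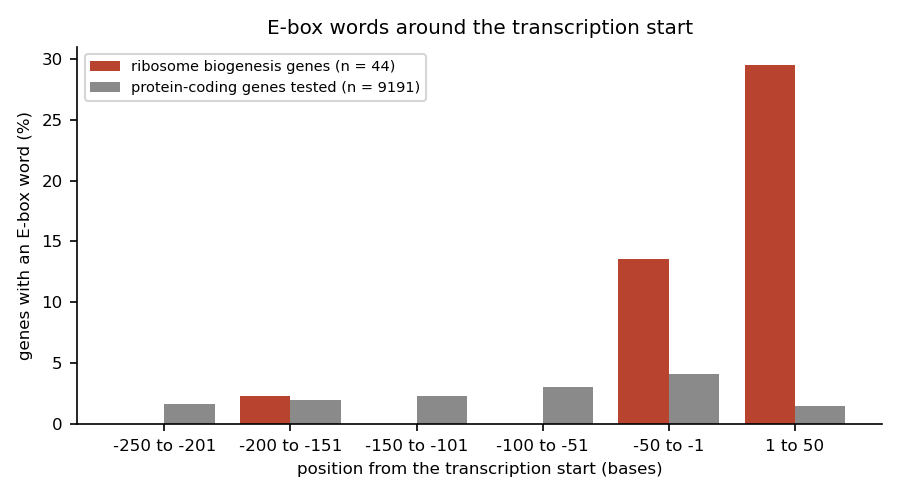
Share of genes (%) with the E-box word in each bin of 50 bases from 250 bases before to 50 bases after the transcription start, for the 44 ribosome biogenesis genes (red) and the 9191 protein-coding genes tested (grey). The red bars stand highest in the first 50 transcribed bases (29.5%) and in the 50 bases before the start (13.6%).

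The table gave FPKM, a fragment count that is already divided by gene length and by library size. The fragment totals recovered from the FPKM values ranged from 15465497 to 18042299 per library. The Pearson correlation of log2 levels across genes was 0.983 between the TF1-BA libraries, 0.979 between the TF1-BAR libraries and 0.946 to 0.956 between the lines. All 8 erythroid-myeloid markers of TF1 were present, at 6.64 to 97.2 FPKM, and their summed level was 360.0 to 372.0 FPKM in TF1-BA and 440.0 to 447.0 FPKM in TF1-BAR. They did not share a direction. KIT, CD34 and CD33 were called higher in TF1-BAR (log2 fold changes 1.12, 1.17 and 0.87), whereas KLF1, CSF2RA and GATA1 lay lower without overlap and were not called (-0.34, -0.19 and -0.14). CSF2RB lay higher without overlap and was not called (0.27), and TFRC overlapped (-0.03). Among markers of other cell types, the T lymphoid sum was 19.2 to 20.8 FPKM in TF1-BA and 5.76 to 6.36 FPKM in TF1-BAR, nearly all of it CD3D, with CD3E and CD3G near 0. The B lymphoid sum, from 2 markers found, was 3.11 to 3.45 and 4.14 to 4.46 FPKM, and the epithelial sum was 8.87 to 10.0 and 12.3 to 12.9 FPKM. The part of these differences in the results was not tested. In bulk samples, fewer cells of a type and less RNA per cell cannot be told apart.

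All 51 genes were expressed in both lines, and their levels spanned a wide range. NPM1 had the highest level, with 397 and 392 FPKM in the TF1-BA libraries and 426 and 400 FPKM in the TF1-BAR libraries. At the low end, UTP20 had 1.75 and 1.5 FPKM in TF1-BA and 2.13 and 2.35 FPKM in TF1-BAR. The median level over the 51 genes was about the same in the 4 libraries, at 17.4 and 16.9 FPKM in TF1-BA and 17.4 and 16.4 FPKM in TF1-BAR. Their summed level was lower in TF1-BAR, with 2150 and 2090 FPKM in TF1-BA and 2040 and 1920 FPKM in TF1-BAR. The sum over the whole expression table was also lower, with 304529 and 304178 FPKM in TF1-BA and 291217 and 289293 FPKM in TF1-BAR. Between 64 and 28188 fragments stood behind each value of these genes.

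The lines were compared with limma after adding 0.5 to each FPKM and taking log2. The 15519 genes that averaged at least 0.5 FPKM were tested, and a gene was called when its Benjamini-Hochberg adjusted p was below 0.05. A fold change on this scale understates the change of genes with low levels. All 51 genes passed the filter, and 15 were called (29.4%), where 26.9% of all genes tested and 29.1% of the protein-coding genes were called. Of the 15 genes, 6 were higher in TF1-BAR (11.8% of the 51, with 16.3% of all genes) and 9 were lower (17.6%, with 10.5% of all genes), so that 40% of the called genes were higher. After rescaling to TPM, the length-corrected unit in which every library has the same sum, 18 genes were called, with 29% of all genes, and 61.1% of the 18 were higher (11 higher and 7 lower). This rescaling moved the median log2 fold change of all genes from 0.066 to 0.137. The libraries of the 2 lines did not overlap for 41 genes (80.4%), 25 higher and 16 lower, whereas this was so for 69.3% of all genes (40.9% higher and 28.4% lower) and 73.2% of protein-coding genes. The median log2 fold change over the 51 genes was 0.067, compared with 0.066 over all genes tested. Hence the share of called genes and the median of the list were close to those of all genes, while single genes differed in both directions, from -1.05 to 0.51.

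BMS1 was the gene of the list that also passed the threshold of 1 on the log2 scale, which 4.75% of all genes tested passed together with the adjusted p. It was no longer past this threshold with a pseudocount of 1 FPKM (-0.99) or with the median of its chromosome removed (-0.70), and its call was lost with either TF1-BA library left out (-0.99 without replicate 1 and -1.11 without replicate 2, adjusted p = 0.0589 and 0.0565). The size of the differences was moderate, with a median absolute log2 fold change of 0.19 over the 51 genes and 0.24 over all protein-coding genes. With either TF1-BA library left out, 0 of the 51 genes were called by limma, with 15 genes (without replicate 1) and 14 genes (without replicate 2) below an unadjusted p of 0.05. In the same fits, 0.928% and 0.271% of all genes were called. With a TF1-BAR library left out, 12 genes (without replicate 1) or 7 genes (without replicate 2) were called, with 20.5% and 6.62% of all genes. Every called gene kept its direction in these 4 fits.

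**Figure D2:**
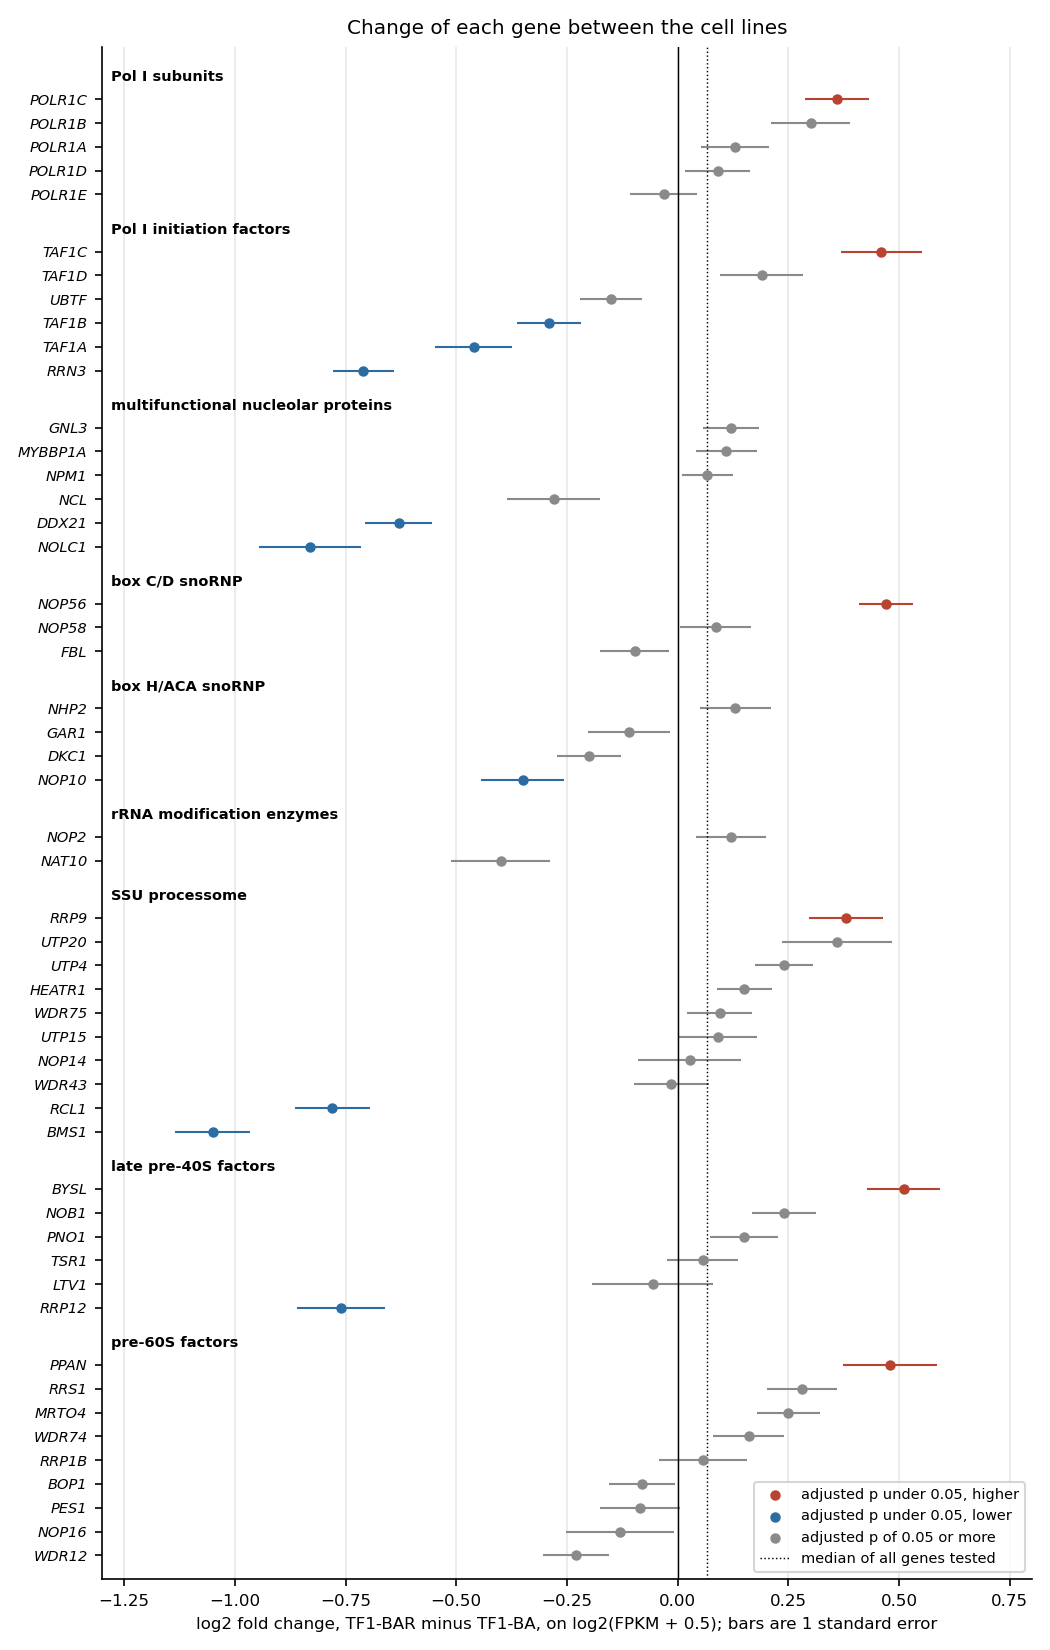
Log2 fold change of each gene (TF1-BAR minus TF1-BA, on log2(FPKM + 0.5)) with 1 standard error, n = 2 libraries per line, grouped by role. Red and blue points have an adjusted p below 0.05, higher and lower in TF1-BAR, grey points do not, and the dotted line is the median of all genes tested (0.066). The largest falls belong to BMS1 (-1.05), NOLC1 (-0.83) and RCL1 (-0.78), and the largest rise to BYSL (0.51).

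Among the 5 Pol I subunits, 1 was called higher and none was called lower, with 16.3% and 10.5% of all genes, and the median log2 fold change was 0.13. POLR1C, a subunit shared by Pol I and Pol III, had 7.73 and 7.96 FPKM in TF1-BA and 10.0 and 10.4 FPKM in TF1-BAR. It was higher in TF1-BAR by 0.36 on the log2 scale (SE 0.0723, limma adjusted p = 0.0266). Genes on the opposite strand cover 18.3% of its exon bases. The catalytic core gave smaller differences that did not pass the test. POLR1A, the largest subunit, had 7.39 and 7.11 FPKM in TF1-BA and 7.80 and 8.20 FPKM in TF1-BAR (log2 fold change 0.13, adjusted p = 0.253). POLR1B, the second largest subunit, had 19.2 and 17.3 FPKM in TF1-BA and 21.5 and 23.6 FPKM in TF1-BAR (0.30, adjusted p = 0.0657). For both genes the TF1-BAR libraries lay above the TF1-BA libraries without overlap, as was so for 40.9% of all genes tested. POLR1D and POLR1E gave 0.09 and -0.03.

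Of the 6 initiation factors of Pol I, 1 was called higher and 3 were called lower, with 16.3% and 10.5% of all genes. In all 6 the libraries of the lines did not overlap, as in 69.3% of all genes. RRN3, which links Pol I to the promoter-bound factors and is regulated by growth signals, had 34.2 and 31.7 FPKM in TF1-BA and 20 and 19.7 FPKM in TF1-BAR. The difference was -0.71 on the log2 scale (SE 0.0691, adjusted p = 0.00642), at chr16:15060022-15094317 (GRCh38) on the minus strand. RRN3 has near-identical pseudogenes, 3 of which were in the table, and reads shared among them could have been split by the counting. RRN3P1 moved the other way, from 3.66 and 3.77 FPKM in TF1-BA to 5.51 and 4.99 FPKM in TF1-BAR (0.45, adjusted p = 0.0269), and RRN3P2 gave -0.02.

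The TAF1 genes encode the subunits of SL1 that join the TATA-binding protein at the ribosomal promoter, and calls fell in both directions. TAF1A had 5.34 and 5.09 FPKM in TF1-BA and 3.79 and 3.55 FPKM in TF1-BAR, a difference of -0.46 on the log2 scale (SE 0.0869, adjusted p = 0.0233). TAF1B had 8.59 FPKM in both TF1-BA libraries and 7.01 and 6.86 FPKM in TF1-BAR, a difference of -0.29 (SE 0.0721, adjusted p = 0.0423). After rescaling to TPM, TAF1B was not called by limma (-0.236, adjusted p = 0.0746). TAF1C had 4.59 and 5.15 FPKM in TF1-BA and 6.73 and 7.01 FPKM in TF1-BAR, and was higher by 0.46 (SE 0.0907, adjusted p = 0.0253). TAF1D gave 0.19 (adjusted p = 0.195). Of the exon bases of TAF1C, 8.07% lie under a gene on the opposite strand, and strand use in the counting was not stated. UBTF, the architectural factor that keeps ribosomal genes open, had 11.2 and 10.8 FPKM in TF1-BA and 9.82 and 9.94 FPKM in TF1-BAR (-0.15, adjusted p = 0.172).

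**Figure D3:**
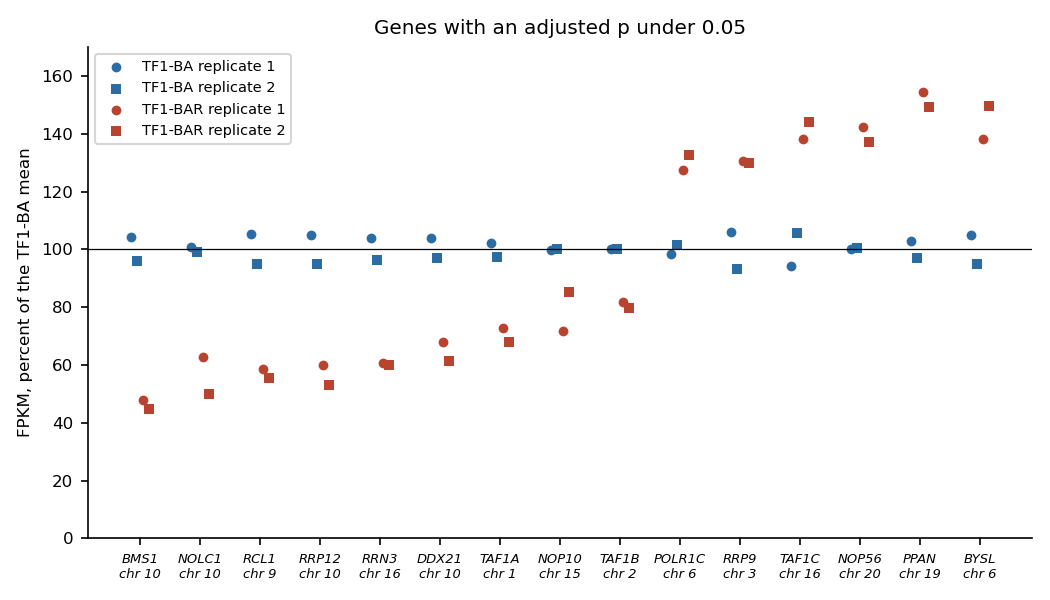
FPKM of the 15 called genes in each library as a percentage of the TF1-BA mean of the gene (n = 2 libraries per line), ordered by log2 fold change, with the chromosome under each symbol. The TF1-BAR points of the 9 genes on the left lie below all TF1-BA points, and those of the 6 genes on the right lie above them.

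The multifunctional nucleolar proteins are among the most abundant factors of the nucleolus, and 2 of 6 were called lower in TF1-BAR, with 10.5% of all genes and 44.5% of the genes on chromosome 10, where both of these genes lie. NOLC1 (Nopp140), a chaperone of snoRNPs that also binds Pol I, had 115 and 113 FPKM in TF1-BA and 71.6 and 57.1 FPKM in TF1-BAR. It fell by 0.83 on the log2 scale (SE 0.116, adjusted p = 0.0118). DDX21, an RNA helicase that couples Pol I transcription with processing, had 133 and 124 FPKM in TF1-BA and 86.8 and 78.7 FPKM in TF1-BAR, a difference of -0.63 (SE 0.0758, adjusted p = 0.00911). Nucleolin (NCL), the major RNA-binding protein of the nucleolus, had 154 and 148 FPKM in TF1-BA and 137 and 113 FPKM in TF1-BAR, which did not pass the test (-0.28, SE 0.105, adjusted p = 0.110). Nucleophosmin (NPM1), the histone chaperone and nucleolar scaffold with the highest level of the list, gave 0.067 (SE 0.0571, adjusted p = 0.420), and the nucleostemin gene GNL3 and the Pol I repressor MYBBP1A gave 0.12 and 0.11. A total of 18 NPM1 pseudogenes were in the table, of which NPM1P27 had 17.4 to 20 FPKM.

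Box C/D snoRNPs methylate ribosomal RNA. Of their 3 core genes, 1 was called higher, with 16.3% of all genes and 46.8% of those on chromosome 20, where it lies. This gene, NOP56, had 27.1 and 27.2 FPKM in TF1-BA and 38.6 and 37.2 FPKM in TF1-BAR (0.47, SE 0.0607, adjusted p = 0.0101). The partner NOP58 gave 0.09, and the methyltransferase fibrillarin (FBL) had 102 and 99.5 FPKM in TF1-BA and 88.7 and 100 FPKM in TF1-BAR (-0.10, adjusted p = 0.392). The libraries of the lines overlapped for both genes.

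Box H/ACA snoRNPs convert uridine to pseudouridine, and 1 of their 4 core genes was called, with 26.9% of all genes. NOP10, a small scaffold protein, had 93.0 and 93.1 FPKM in TF1-BA and 66.9 and 79.2 FPKM in TF1-BAR, with an adjusted p just inside the threshold (-0.35, SE 0.0934, adjusted p = 0.0493). After rescaling to TPM, NOP10 was not called by limma (-0.286, adjusted p = 0.0834). Dyskerin (DKC1), the pseudouridine synthase, had 372 and 375 FPKM in TF1-BA and 344 and 307 FPKM in TF1-BAR (-0.20, adjusted p = 0.10), while GAR1 gave -0.11 and NHP2, with 28% of its exon bases under a gene on the opposite strand, gave 0.13. The 4 core genes, whose products form a single complex, thus differed widely in mRNA level, from 19.3 and 19.1 FPKM for GAR1 to 372 and 375 FPKM for DKC1 in TF1-BA. Of the modifying enzymes outside snoRNPs, neither was called. The acetyltransferase NAT10 gave -0.40 (adjusted p = 0.0564) and the methyltransferase NOP2 gave 0.12. Another gene on the same strand covers 54.4% of the exon bases of NOP2, so its value cannot be assigned to NOP2 alone.

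The SSU processome held the gene with the largest difference. Of its 10 genes, 1 was called higher and 2 lower, with 16.3% and 10.5% of all genes, and 7 were not called. BMS1, a GTPase needed for the early cleavages of the precursor RNA, had 12.4 and 11.4 FPKM in TF1-BA and 5.70 and 5.33 FPKM in TF1-BAR. The mean level went from 11.9 ± 0.706 to 5.51 ± 0.260 FPKM (SD, n = 2), a log2 fold change of -1.05 (SE 0.0846, adjusted p = 0.00496), at chr10:42782801-42834937 on the plus strand. RCL1, the endonuclease-like partner that binds BMS1 and enters the processome with it, was also lower, with 16.1 and 14.5 FPKM in TF1-BA and 8.97 and 8.49 FPKM in TF1-BAR (-0.78, SE 0.0852, adjusted p = 0.00776). RCL1 lies on chromosome 9 (chr9:4792869-4885917, plus strand), where the median log2 fold change of all genes tested was 0.08. The 26 genes within 5 Mb of RCL1 had a median of -0.12, with 7 called lower and 4 called higher. On the whole chromosome, 10.2% of the genes were called lower and 15.6% higher.

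Of the other 8 SSU processome genes, 1 was called, with 26.9% of all genes. RRP9, the U3 snoRNP protein that helps to recruit the processome to the precursor, had 17.4 and 15.3 FPKM in TF1-BA and 21.4 and 21.3 FPKM in TF1-BAR (0.38, SE 0.0840, adjusted p = 0.0326). The scaffold UTP20 had a log2 fold change of 0.36 that did not pass the test (SE 0.124, adjusted p = 0.0891), and UTP4, in the subcomplex that binds the precursor during transcription, gave 0.24 (adjusted p = 0.0562). HEATR1, UTP15, WDR43, WDR75 and NOP14 ranged from -0.01 to 0.15, and none of them was called. Genes on the opposite strand cover 23.1% of the exon bases of HEATR1 and 20.7% of those of NOP14. BMS1 has 11 named pseudogenes in the table. The highest, BMS1P20, had 13.7 and 13 FPKM in TF1-BA and 16.9 and 14.5 FPKM in TF1-BAR (0.22, adjusted p = 0.151), and how reads shared with BMS1 were assigned was not stated.

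Of the 6 late factors of the small subunit, 1 was called higher and 1 lower, with 16.3% and 10.5% of all genes. BYSL (bystin), which helps to release the pre-40S particle from the nucleolus, showed the largest rise of the list, from 18.7 and 16.9 FPKM in TF1-BA to 24.6 and 26.6 FPKM in TF1-BAR. Its log2 fold change was 0.51 (SE 0.0831, adjusted p = 0.0161), at chr6:41921188-41933046 on the plus strand. RRP12, a repeat protein for export and processing of the particles, lies on chromosome 10, where 44.5% of the genes were called lower. It went from 8.50 and 7.70 FPKM in TF1-BA to 4.86 and 4.31 FPKM in TF1-BAR (-0.76, SE 0.0993, adjusted p = 0.0106). The endonuclease NOB1 and its partner PNO1 gave 0.24 (adjusted p = 0.0675) and 0.15, and TSR1 and LTV1 gave 0.06 and -0.06. Other genes on the same strand cover 34.7% of the exon bases of LTV1, and genes on the opposite strand cover 26.9% of those of TSR1 and 20.4% of those of NOB1.

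Of the 9 large-subunit factors, 1 was called, higher in TF1-BAR, with 26.9% of all genes called and 16.3% called higher. PPAN, a factor of early large-subunit particles, had 1.70 and 1.60 FPKM in TF1-BA and 2.55 and 2.46 FPKM in TF1-BAR (0.48, SE 0.106, adjusted p = 0.0312). Of its exon bases, 49.2% lie under the read-through gene PPAN-P2RY11 or P2RY11 on the same strand, so the value cannot be assigned to PPAN alone. The PeBoW complex, which joins BOP1, PES1 and WDR12 for large-subunit processing, gave -0.08, -0.08 and -0.23, and the 3 genes were not called. RRS1 and MRTO4 gave 0.28 and 0.25 with adjusted p-values of 0.0578 and 0.0591, and WDR74, RRP1B and NOP16 ranged from -0.13 to 0.16.

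Of the 7 genes with an absolute log2 fold change above 0.5, 4 lie on chromosome 10. These were BMS1, NOLC1, RRP12 and DDX21, all 4 of the list's genes on that chromosome, and all were called lower. Chromosome 10 as a whole was low in TF1-BAR. Of its 593 genes tested, 44.5% were called lower and 4.38% higher, with a median log2 fold change of -0.35. The 4 genes each lay below this median, by -0.70 for BMS1, -0.48 for NOLC1, -0.41 for RRP12 and -0.28 for DDX21. Genes within 5 Mb had medians of -0.25 around BMS1 (36 genes), -0.25 around NOLC1 (91 genes), -0.31 around RRP12 (87 genes) and -0.41 around DDX21 (81 genes). Chromosome 20 was the opposite case, with 46.8% of its 440 genes called higher and a median of 0.39. NOP56, the list's gene there (chr20:2652145-2658393), at 0.47 lay close to this median and to that of the 75 genes around it (0.51). Whether the number of copies of these chromosomes differed between the lines was not measured.

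When the median of its chromosome was subtracted from each gene's TF1-BAR values, 11 of the 51 genes were called, 2 higher and 9 lower, with 23% of all genes called. Of the genes of chromosome 10, BMS1, NOLC1 and RRP12 were still called (adjusted p = 0.00978, 0.0428 and 0.0423), and DDX21 was not (adjusted p = 0.0552, with 2.76e-05 to 0.0848 over all alternatives). NOP56 was no longer called (0.08, adjusted p = 0.361, with 0.000286 to 0.361 over all alternatives). The calls of TAF1C, RRP9 and PPAN were also lost, with log2 fold changes of 0.34, 0.33 and 0.37 and adjusted p-values of 0.0552, 0.0509 and 0.0639, and those of RRN3, RCL1, BYSL and POLR1C were kept. NAT10 gained a call (-0.51, adjusted p = 0.0359, with 0.00521 to 0.263 over all alternatives). Among the 47 genes off chromosome 10, before this subtraction, 6 were higher and 5 were lower (23.4% called, with 26.9% of all genes in the same fit, 16.3% higher and 10.5% lower), with a median log2 fold change of 0.09.

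The rest of the pathway was read from a wider list. Of 116 other ribosome biogenesis genes, listed by name and covering further Pol I, processome, subunit, exosome and snoRNP assembly genes, 113 passed the filter and 19 were called (16.8%, with 26.9% of all genes). The calls were 10 higher (8.85%, with 16.3% of all genes) and 9 lower (7.96%, with 10.5% of all genes). None passed the log2 threshold of 1, and the median was -0.03. The split by direction differed after rescaling to TPM, as listed in the closing section. By class, the calls numbered 0 of 8 further Pol I genes, 3 of 34 processome genes (3 higher), 0 of 7 pre-40S genes and 12 of 42 pre-60S genes (5 higher, 7 lower). In the nuclear exosome, which trims the precursor RNA, 3 of 14 genes were called (2 higher, 1 lower), and in snoRNP assembly 1 of 8 (lower).

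The largest falls among the called genes of the wider list were DDX24, NOC3L and RUVBL2. DDX24, an RNA helicase of large-subunit assembly, had 26.3 and 24.0 FPKM in TF1-BA and 15.7 and 14.8 FPKM in TF1-BAR (-0.70, SE 0.0782, adjusted p = 0.00795). NOC3L, a large-subunit factor encoded on chromosome 10, had 23.9 and 22.6 FPKM in TF1-BA and 16.4 and 15.2 FPKM in TF1-BAR (-0.54, SE 0.0751, adjusted p = 0.0116). With the chromosome median removed it gave -0.19 and was not called (adjusted p = 0.121, with 0.000246 to 0.121 over all alternatives). RUVBL2, an ATPase of the chaperone that assembles snoRNPs, had 77.7 and 76.9 FPKM in TF1-BA and 58.6 and 55.4 FPKM in TF1-BAR (-0.44, SE 0.0601, adjusted p = 0.0115). In each of these genes both TF1-BAR libraries lay below both TF1-BA libraries, as was so for 28.4% of all genes tested. The genes were picked as the largest called falls, so the lack of overlap adds no support.

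The largest rises among the called genes of the wider list were EXOSC5, DDX51 and GRWD1. EXOSC5, a subunit of the exosome ring, had 16.5 and 16.7 FPKM in TF1-BA and 23.7 and 24.9 FPKM in TF1-BAR (0.54, SE 0.0661, adjusted p = 0.0095). The large-subunit helicase DDX51 had 1.83 and 1.94 FPKM in TF1-BA and 2.79 and 3.02 FPKM in TF1-BAR (0.51, SE 0.104, adjusted p = 0.0266). GRWD1, a chaperone of a large-subunit ribosomal protein, had 6.70 and 6.38 FPKM in TF1-BA and 8.70 and 9.67 FPKM in TF1-BAR (0.46, SE 0.0876, adjusted p = 0.0235). The 4 genes of the wider list on chromosome 10 (PDCD11, NOC3L, GTPBP4 and EXOSC1) had TF1-BAR libraries below the TF1-BA libraries in each case, as did 68.6% of all genes tested on that chromosome. Of these 4 genes, NOC3L and GTPBP4 were called lower, as were 44.5% of the genes on that chromosome, and the median of the 4 was -0.33. GTPBP4 went from -0.30 to 0.05 with the chromosome median removed and was then not called (adjusted p = 0.695, with 0.00842 to 0.695 over all alternatives).

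MYC, the regulator of the pathway, had 198 and 168 FPKM in TF1-BA and 242 and 256 FPKM in TF1-BAR, higher by 0.45 on the log2 scale (SE 0.0947, adjusted p = 0.0292). The call was lost with any of the 4 libraries left out (adjusted p = 0.0754 to 0.153). Beside this, the 19 genes with the E-box word had 2 called higher, 3 called lower and 14 not called, with a median log2 fold change of 0.03. The 25 genes with a window but no word had 4 called higher, 4 called lower and 17 not called, with a median of 0.09. Of all genes tested, 16.3% were called higher and 10.5% lower, with a median of 0.066. Genes with the word near an annotated start moved in both directions, since BYSL and RRP9 were higher, and RCL1, DDX21 and NOP10 were lower. No test of this split was run.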

How the data were processed

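The authors made 150 bp paired-end libraries, aligned them to GRCh38 with TopHat2 2.0.13 and ran Cufflinks and Cuffdiff 2.2.0, per the study's methods and processing notes. They deposited FPKM for 32673 genes, and all 4 value columns were matched to samples. FPKM are no counts, so the lines were compared with limma 3.58.1 (R 4.3.3; lmFit, eBayes with trend) on log2(FPKM + 0.5), on genes with a mean of at least 0.5 FPKM, with Benjamini-Hochberg adjustment over all 15519 genes. With 2 libraries against 2, an exact two-sided permutation test cannot go below p = 0.333, so the p-values rest on the spread pooled across genes.

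Whole fragments were recovered from the FPKM (tolerance 0.005) at the GENCODE exon length for 14560 of 30853 genes above 0 and at a fitted length for 16293. Fitted lengths can be off by a whole factor, so fragment numbers are approximate. The replicate libraries differed by more than sampling noise (chi-square per degree of freedom 4.14 and 7.1). Same-numbered libraries did not deviate together (correlation 0.0646).

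Values per library are given for genes past both thresholds, the 15 largest called changes, the ends of the level range in TF1-BA, and POLR1A, POLR1B, UBTF, RRN3, NCL, NPM1 and FBL. They are also given for the 3 largest called rises and falls of the wider list and MYC. Values of other genes are given to describe their group or complex. The genes and lists were chosen with earlier results of these data known. Promoter windows came from RefSeq (GRCh38.p14), matched by symbol for 44 of 51 genes. Alternatives varied the pseudocount, filter, scaling, variance model, replicate block and libraries. The fits on recovered fragments (voom), with chromosome medians removed and on protein-coding genes only were added after seeing the data. The B lymphoid marker MS4A1 was not analysed here.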

Additional observations from a re-analysis of the deposited data

How the results depend on the processing

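Over 17 alternatives, the 22 individually tested genes gave 374 values, of which 299 kept direction and side of the threshold, 67 lost the call, 8 gained it and 0 changed direction. No gene of the 51 was called in every setting, and 26 were called in none. Relative to 15 called genes (6 higher, 9 lower, 1 past both thresholds), and 19 of the wider list (10 higher, 9 lower), the counts moved as follows. With a pseudocount of 1 FPKM, 0 genes passed both thresholds. With no filter, 6 genes were called (1 higher, 5 lower) and 5 of the wider list (2 higher, 3 lower), with 4.69% of all genes. Under TPM scaling, 18 genes were called, 11 of them higher, with 29% of all genes. The wider list then had 16 higher and 4 lower, and the median of the 51 genes was 0.135. Without the trend, 11 genes were called (4 higher, 7 lower) and 9 of the wider list (5 higher, 4 lower), with 19.9% of all genes. With the filter at a mean of 1 FPKM, 17 genes were called (7 higher, 10 lower), with 32.1% of the genes tested. Under quantile normalization, 13 genes were called (5 higher, 8 lower), with 25.6% of all genes. With voom on recovered fragments, 22 of the 51 and 35 of the wider list were called, 21 of the latter lower, with 37.8% of all genes. With chromosome medians removed, 11 genes were called, 2 of them higher, with 23% of all genes. Of the 51 genes, 0 then passed both thresholds, the wider list had 4 higher, and the median was 0.0134. On protein-coding genes only, 23 genes were called (12 higher) and 32 of the wider list (17 lower), with 41.7% of the genes tested. The cause of these shifts was not tested.

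Leaving out 1 library at a time gave 0 to 12 called genes (0 to 2 higher, 0 to 10 lower), 0 to 1 past both thresholds and 0 to 4 called on chromosome 10. The wider list gave 0 to 15 calls (0 to 5 higher, 0 to 10 lower), and the median ranged from 0.0138 to 0.0997. The lone library is assumed to vary like the other line. With the replicate block, 15 genes were called (6 higher, 9 lower), with 25.6% of all genes. TAF1B was then not called (adjusted p = 0.0588), and the numbers are shared labels only. The depth limits the low genes most, down to 64 fragments.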
